A study of Mus musculus with 10 samples.

Results

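The 48 genes described here make up the response to type I and type II interferon, as read in eosinophils sorted from inflamed mouse lung. They were taken by gene symbol from a table of 35725 gene entries, and all 48 symbols were found. A filter on low read counts kept 47 of them for testing and left out Ifi44. The genes were followed in 10 libraries, 5 from P2ry14-null mice and 5 from wild-type mice (WT). P2ry14 encodes a receptor for UDP-sugars. The P2ry14-null animals carried a null P2ry14 allele, and the WT animals were C57BL/6J. All 10 libraries came from male mice of the same allergic asthma model. Ovalbumin (50 µg) and a protease of Aspergillus oryzae (20 µg) were instilled in the oropharynx for 2 sensitizations, and a 1% ovalbumin aerosol followed after 7 days. Eosinophils were sorted 16 h after that challenge. The labels give neither the age of the mice nor the background strain of the null allele, and do not say whether each library came from its own mouse, so p-values here measure the spread between libraries, which may be technical.

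Type I interferons bind the receptor pair Ifnar1 and Ifnar2, and interferon gamma, the type II interferon, binds Ifngr1 and Ifngr2. Type I signalling works through a complex that holds Stat2 and Irf9, binds the interferon-stimulated response element (ISRE) and drives antiviral genes of the IFIT, OAS and MX families. Type II signalling acts at the gamma-activated site (GAS) and through the induced factor Irf1, and is the stronger inducer of the guanylate-binding proteins (GBP), the immunity-related GTPases (IRG) and the chemokine Cxcl9. The division is not strict, since many genes respond to both.

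The libraries held 67.2 to 151 M counted reads in P2ry14-null and 118 to 185 M in WT, and levels are given as CPM, the counts scaled to a common library size with edgeR's TMM factors. P2ry14 itself had 24.2, 23.4, 21.8, 24.1 and 22.5 CPM in P2ry14-null libraries 1 to 5, against 226, 206, 229, 190 and 206 CPM in WT libraries 1 to 5. It was lower in every P2ry14-null library (log2 fold change −3.19 ± 0.06, standard error; exact two-sided permutation p = 0.0079, the smallest that 252 splits can give). Siglecf and Ccr3, surface markers of eosinophils, were at 1189 CPM or more in every library. The summed eosinophil markers had overlapping ranges, 10144 to 10794 CPM in P2ry14-null and 10099 to 10739 CPM in WT. Class II antigen-presenting cell genes summed to 423 CPM in P2ry14-null library 2, against 74.4 to 119 CPM in the other P2ry14-null libraries and 105 to 143 CPM in WT, and 7 of its 8 genes were higher in P2ry14-null on average. Alveolar macrophage markers were also highest in P2ry14-null library 2, with sums of 729 to 2172 CPM in P2ry14-null and 778 to 1003 CPM in WT. Markers of T and NK cells, main sources of interferon gamma, summed to 2.99 to 6.89 CPM in P2ry14-null and 2.97 to 4.66 CPM in WT. Mast cell and basophil markers summed to 35.5 to 49.4 CPM in P2ry14-null and 43.8 to 54.8 CPM in WT, and all 5 tested genes of that list lay below 0 (median log2 fold change −0.47), 2 of them at an unadjusted edgeR p under 0.05. Neutrophil markers summed to 3694 to 5393 CPM in P2ry14-null and 3698 to 4637 CPM in WT (median 0.16), and epithelial, endothelial and stromal markers to 208 to 281 CPM in P2ry14-null and 231 to 252 CPM in WT (median 0.48), each list with 3 genes higher in P2ry14-null at an unadjusted p under 0.05. The epithelial, endothelial and stromal maximum was in P2ry14-null library 2 too, and the other P2ry14-null libraries had 208 to 251 CPM. At an unadjusted edgeR p under 0.05, 2.67% of all genes were lower in P2ry14-null and 1.46% higher. The part of these cell types in the interferon values was not tested.

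Across the interferon genes, the 11 GBP, IRG and chemokine members had lower mean CPM in P2ry14-null eosinophils than in WT. Of these, Gbp7 hardly differed, with a log2 fold change of −0.03 ± 0.10. On a separate list of other GBP and IRG genes, 8 of 12 tested lay below 0 and 4 above (median −0.09). The receptors and the RNA sensors lay close to their WT levels. No single member passed the test across all genes. edgeR's quasi-likelihood test with Benjamini-Hochberg adjustment called 0 of the 47 tested members, against 6 of 15586 genes (0.0385%; 0.0257% lower and 0.0128% higher in P2ry14-null). DESeq2 called 1 member, Ifi27, and 0.118% of all genes. At an unadjusted edgeR p under 0.05, 8 members were lower in P2ry14-null and 0 were higher, against 2.67% of all genes lower and 1.46% higher. That count of 8 was not stable to the libraries used. Leaving out P2ry14-null library 1, 4 or 5 brought it to 4, 3 or 4, and leaving out WT library 1, 2 or 3 brought it to 2, 16 or 5. Of the 47 members, 40 had a log2 fold change below 0 (48.8% of all genes did), or 32 when libraries were scaled by their totals alone. A log2 fold change of −0.2 or lower was found for 19 members and for 7.82% of all genes. The median log2 fold change was −0.14 over the members and 0.00 over all genes tested. Leaving out P2ry14-null library 3 gave a members' median of −0.22, leaving out WT library 2 gave −0.24, and leaving out WT library 3 gave −0.09. Ifi27 was the only member whose 5 P2ry14-null values all lay below its 5 WT values, which 0.359% of all genes did. In sorted bulk cells, a smaller number of responding cells and less RNA in each cell cannot be told apart.

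**Figure D1:**
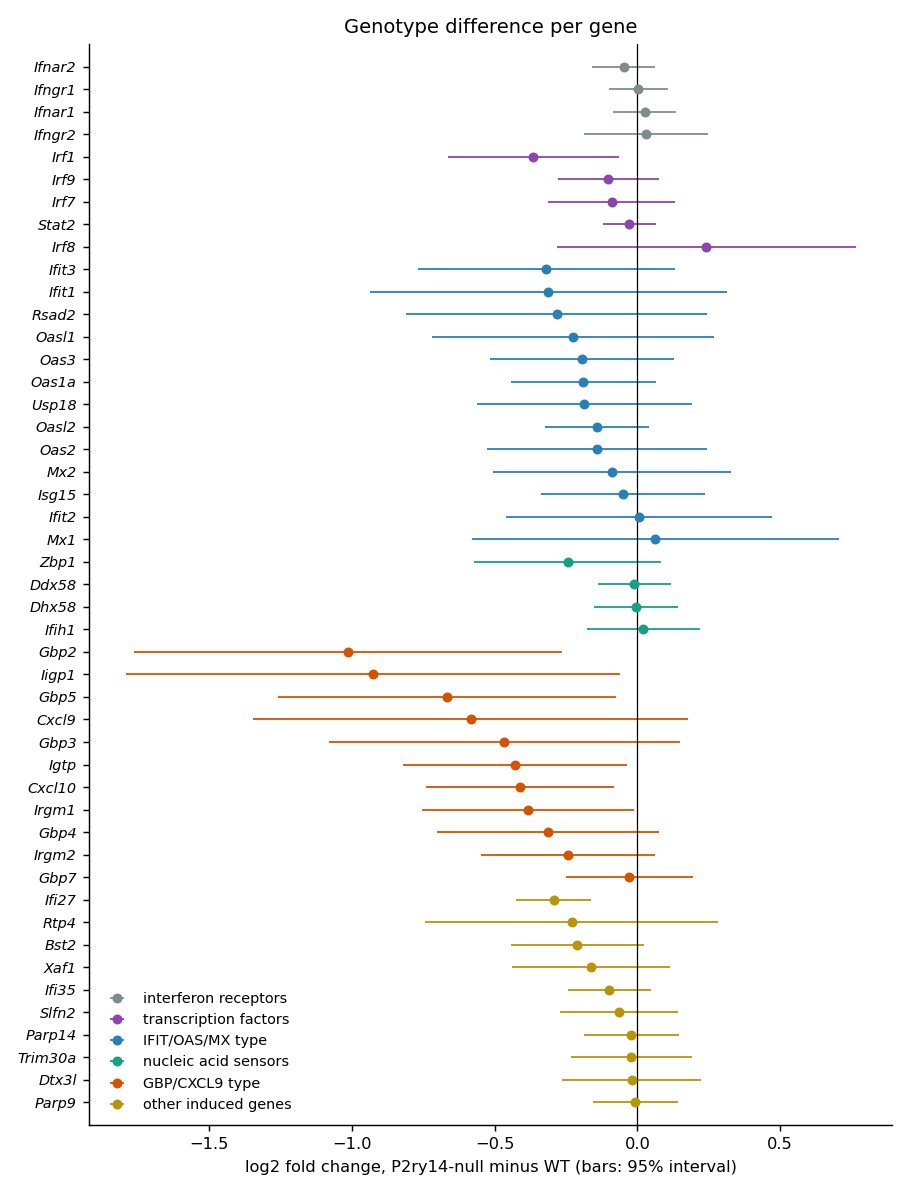
The log2 fold change of each of the 47 tested members, P2ry14-null over WT, is plotted with its 95% interval and grouped by role. The 11 GBP/CXCL9 type genes all lie below 0, but the intervals of Cxcl9, Gbp3, Gbp4, Gbp7 and Irgm2 include 0. The intervals of the 4 receptors, the IFIT/OAS/MX type genes and the sensors all include 0.

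Sequence around the gene starts was described too, though it was not itself used to choose the genes. The genes were listed for their interferon response, which acts through the ISRE and the GAS. A high share of matches among them is therefore no independent result. RefSeq promoters on GRCm38.p6, from 250 bases before to 50 bases after the start, were found for 36 of the 48 members. The others were Oas2, Mx1, Mx2, Usp18, Dhx58, Zbp1, Gbp4, Iigp1, Rtp4, Ifi27, Parp9 and Parp14. The letters GAAANNGAAA, the core of an ISRE, were searched on both strands and were present in 19 of the 36 members (52.8%), against 3.99% of 27025 genes. They were in 8 of 9 GBP/CXCL9 type genes, 6 of 10 IFIT/OAS/MX type genes, 2 of 2 sensor genes, 1 of 5 transcription factor genes, 2 of 6 other induced genes and 0 of 4 receptor genes. The letters TTCNNNGAA, the core of a GAS, read the same on both strands and were present in 12 of the 36 members (33.3%), against 9.55% of all genes. By class these were 4 of the 9 GBP/CXCL9 type genes, 2 of the 10 IFIT/OAS/MX type genes, 2 of the 4 receptor genes, 2 of the 5 transcription factor genes, 2 of the 6 other induced genes and 0 of the 2 sensor genes. A match is a description of letters in this window and not evidence of binding.

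The 5 promoters printed here show the letters in a GBP gene, a chemokine, 2 type I response genes and a receptor, each 5′ to 3′ on the strand of the gene with the matches in capitals. Gbp2 (chr3:142620413-142620712, plus strand) has an ISRE match, by its letters, 59 bases before its start, on the opposite strand. Cxcl10 (chr5:92348840-92349139, minus strand) has 1 match 213 bases before its start. Ifit1 (chr19:34640639-34640938, plus strand) has 2 matches, at 104 and 85 bases before the start, and Isg15 (chr4:156200769-156201068, minus strand) has 3 that overlap, at 78, 72 and 66 bases. Ifnar2 (chr16:91372533-91372832, plus strand) has no ISRE match and a GAS match 214 bases before the start.
Gbp2: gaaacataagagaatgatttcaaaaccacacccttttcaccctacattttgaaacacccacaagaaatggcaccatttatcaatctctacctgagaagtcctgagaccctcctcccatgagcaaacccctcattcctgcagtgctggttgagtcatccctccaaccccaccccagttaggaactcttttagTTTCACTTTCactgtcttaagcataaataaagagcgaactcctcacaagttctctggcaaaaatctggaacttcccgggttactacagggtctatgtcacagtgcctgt
Cxcl10: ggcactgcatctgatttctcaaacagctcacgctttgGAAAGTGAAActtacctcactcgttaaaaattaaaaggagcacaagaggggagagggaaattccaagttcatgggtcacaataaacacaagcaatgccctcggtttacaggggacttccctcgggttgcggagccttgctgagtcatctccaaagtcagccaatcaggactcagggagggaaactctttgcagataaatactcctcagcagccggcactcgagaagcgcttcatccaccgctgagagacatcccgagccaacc
Ifit1: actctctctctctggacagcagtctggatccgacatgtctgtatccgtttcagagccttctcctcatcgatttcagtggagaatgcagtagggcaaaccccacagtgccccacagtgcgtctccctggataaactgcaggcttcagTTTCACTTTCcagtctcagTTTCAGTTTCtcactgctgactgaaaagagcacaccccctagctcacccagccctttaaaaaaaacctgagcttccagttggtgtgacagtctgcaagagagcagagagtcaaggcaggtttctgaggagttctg
Isg15: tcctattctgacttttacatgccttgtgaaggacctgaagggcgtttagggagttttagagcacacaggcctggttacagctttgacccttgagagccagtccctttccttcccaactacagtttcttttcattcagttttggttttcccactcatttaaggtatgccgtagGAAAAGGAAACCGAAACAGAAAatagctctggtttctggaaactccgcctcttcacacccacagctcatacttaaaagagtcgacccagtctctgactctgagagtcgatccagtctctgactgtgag
Ifnar2: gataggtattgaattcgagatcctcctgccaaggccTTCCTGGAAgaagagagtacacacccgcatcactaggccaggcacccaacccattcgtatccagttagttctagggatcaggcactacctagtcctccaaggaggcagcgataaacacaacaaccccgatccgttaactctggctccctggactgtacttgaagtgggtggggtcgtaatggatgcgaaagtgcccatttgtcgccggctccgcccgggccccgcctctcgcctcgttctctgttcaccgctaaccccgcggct

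The 4 receptor chains were expressed in all libraries at levels that hardly differed between genotypes. Ifngr1, the ligand-binding chain of the interferon gamma receptor, had the highest level per length among them, 79.7 RPKM (CPM divided by the exon length in kilobases) in P2ry14-null and 79.5 RPKM in WT. Its counts were 230, 219, 238, 231 and 217 CPM in P2ry14-null libraries 1 to 5, against 226, 211, 235, 238 and 221 CPM in WT libraries 1 to 5. The values interleaved, and the log2 fold change was 0.00 with a 95% interval of −0.10 to 0.11. Ifngr2, the signalling chain, had 108, 111, 110, 105 and 99.1 CPM in P2ry14-null libraries, against 96.3, 108, 120, 77.6 and 120 CPM in WT libraries. Its spread was wider in WT, and its log2 fold change was 0.03 ± 0.10. Ifnar1 and Ifnar2, the chains of the type I receptor, averaged 96.1 and 78.4 CPM in P2ry14-null and 94.4 and 81.1 CPM in WT, with log2 fold changes of 0.03 ± 0.05 and −0.05 ± 0.05.

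Of the interferon ligands, a separate list of 18 genes, only Ifng was counted often enough to be tested. It had 60 reads over the P2ry14-null libraries and 93 over the WT libraries (log2 fold change −0.49 ± 0.41, edgeR adjusted p = 0.999). Ifnb1 had 3 reads in P2ry14-null and 2 in WT over all libraries.

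Among the 5 transcription factors, Irf1, which is induced by interferon gamma and binds ISRE-like sites, had the highest level per length, 45.8 RPKM in P2ry14-null and 58.9 RPKM in WT. Irf1 had 170, 160, 255, 153 and 172 CPM in P2ry14-null libraries 1 to 5, against 301, 213, 226, 210 and 220 CPM in WT libraries 1 to 5. P2ry14-null library 3 lay above 4 of the 5 WT libraries, and the other P2ry14-null libraries lay below all of them. The log2 fold change was −0.36 ± 0.14 (95% interval −0.66 to −0.07; unadjusted p = 0.0205, edgeR adjusted p = 0.999). Irf8, a factor of myeloid and dendritic cells, had the lowest level per length of the class, 0.706 RPKM in P2ry14-null and 0.601 RPKM in WT. Its counts were 3.02, 8.82, 3.39, 4.40 and 5.28 CPM in P2ry14-null, against 4.44, 3.47, 3.66, 5.14 and 4.49 CPM in WT. Its log2 fold change was 0.24 ± 0.24 and became −0.066 without P2ry14-null library 2, the library with the highest class II antigen-presenting cell sum. Irf7, Irf9 and Stat2, the last 2 being partners in the type I complex, had log2 fold changes of −0.09, −0.10 and −0.03.

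The 14 genes of the IFIT/OAS/MX type encode antiviral effectors such as the RNA-binding IFIT proteins, the oligoadenylate synthetases and the ubiquitin-like Isg15. Of the 13 that could be tested, 11 had a log2 fold change below 0 (48.8% of all genes did), and the median was −0.19 (−0.10 without WT library 3). At an unadjusted edgeR p under 0.05 there were 0 of the 13, against 2.67% of all genes lower and 1.46% higher. Oasl2, a synthetase-like protein, had the highest level per length of the class, 14.9 RPKM in P2ry14-null and 16.5 RPKM in WT. Its counts were 94.0, 87.5, 114, 95.9 and 85.3 CPM in P2ry14-null libraries, against 118, 91.1, 108, 99.8 and 109 CPM in WT libraries. The groups overlapped, with a log2 fold change of −0.14 ± 0.08. Rsad2, the antiviral enzyme viperin, had 20.8, 22.5, 28.2, 16.4 and 19.8 CPM in P2ry14-null, against 32.1, 13.5, 37.0, 16.9 and 31.5 CPM in WT. WT libraries were spread over a wider range, and its log2 fold change of −0.28 was close to its standard error of 0.24. Mx1, a dynamin-like GTPase, had 0.978, 2.63, 1.05, 1.96 and 2.47 CPM in P2ry14-null, against 1.78, 0.879, 1.71, 2.26 and 2.15 CPM in WT. Its log2 fold change of 0.06 ± 0.30 became −0.10 without P2ry14-null library 2. Ifit1, Ifit2 and Ifit3 had means between 0.590 and 0.985 CPM in P2ry14-null and between 0.695 and 1.22 CPM in WT. Ifi44, which was not tested, had 23 reads in P2ry14-null and 23 in WT.

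None of the 4 nucleic acid sensors differed beyond the spread between libraries. Ddx58, which encodes the RNA helicase RIG-I, led the class per length with 17.1 RPKM in P2ry14-null and 17.3 RPKM in WT. Its counts were 121, 122, 129, 116 and 116 CPM in P2ry14-null libraries, against 122, 110, 129, 114 and 134 CPM in WT libraries, and the log2 fold change was −0.01 ± 0.06. Zbp1, a sensor of Z-form nucleic acid, had 29.5, 32.1, 38.9, 24.0 and 27.4 CPM in P2ry14-null, against 49.0, 26.4, 35.5, 32.6 and 36.4 CPM in WT. WT library 1 was the highest and P2ry14-null library 4 the lowest, and the log2 fold change was −0.24 ± 0.15 (−0.11 without WT library 1). Ifih1 and Dhx58, the related helicases, had log2 fold changes of 0.02 ± 0.09 and −0.01 ± 0.07.

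The 11 genes of the GBP/CXCL9 type had the lowest median of the 6 classes, −0.43, and all 11 lay below 0 (48.8% of all genes did). At an unadjusted edgeR p under 0.05, 6 of the 11 were lower in P2ry14-null, against 2.67% of all genes. But this count was 2 when P2ry14-null library 1, 4 or 5 was left out. It was 1 when WT library 1 was left out and 3 when WT library 3 was left out. The class median was −0.25 without WT library 1. Gbp2, a guanylate-binding protein that acts on vacuoles of intracellular pathogens, had 13.2, 13.6, 33.7, 11.6 and 12.4 CPM in P2ry14-null libraries 1 to 5, against 63.9, 19.8, 33.7, 23.5 and 30.0 CPM in WT libraries 1 to 5. All P2ry14-null libraries except library 3 lay below all WT libraries, and WT library 1 was the highest. Gbp2 averaged 16.9 ± 9.42 CPM in P2ry14-null and 34.2 ± 17.5 CPM in WT (SD, n = 5 each), with a log2 fold change of −1.01 ± 0.35 (95% interval −1.76 to −0.26; unadjusted p = 0.0120, edgeR adjusted p = 0.999). Without WT library 1 it was −0.66.

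Gbp5 had 1.07, 1.36, 1.75, 0.956 and 0.987 CPM in P2ry14-null, against 3.38, 1.10, 2.10, 1.38 and 1.80 CPM in WT. WT library 1 stood highest again, and the log2 fold change of −0.67 ± 0.27 became −0.38 without it. Gbp4 overlapped between groups, with 1.23, 1.41, 1.18, 1.01 and 0.795 CPM in P2ry14-null, 1.74, 0.930, 1.48, 1.44 and 1.39 CPM in WT, and a log2 fold change of −0.31 ± 0.18 (−0.21 without P2ry14-null library 5). Gbp2, Gbp3, Gbp5 and Gbp7 lie beside each other on chromosome 3, about 83.3 to 83.5 Mb from P2ry14. Gbp7, which lies between Gbp5 and Gbp3, had 63.1 CPM in P2ry14-null and 64.3 CPM in WT and a log2 fold change of −0.03 ± 0.10. Gbp7 shares 11.3% of its exon bases with a gene on the same strand, Gm43802, so part of its reads could belong to that gene. Per length, Gbp7 stood at 11.2 RPKM in P2ry14-null and 11.5 RPKM in WT, and Gbp5 at 0.184 RPKM in P2ry14-null and 0.294 RPKM in WT. Gbp genes are close copies, and how reads shared by several of them were counted is not given in the sources used here.

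Cxcl10, a chemokine for activated T cells, had 31.9, 25.7, 46.3, 33.0 and 29.9 CPM in P2ry14-null, against 52.2, 33.8, 43.0, 53.0 and 39.7 CPM in WT. P2ry14-null library 3 lay among the WT libraries, and the other 4 lay below all of them. Its log2 fold change was −0.41 ± 0.15 (unadjusted p = 0.0187, edgeR adjusted p = 0.999). Cxcl9 was near the limit of counting, with means of 0.231 CPM in P2ry14-null and 0.359 CPM in WT and a log2 fold change of −0.58 ± 0.35. Cxcl10 shares 5.91% of its exon bases with a gene on the other strand, Art3, so part of its reads could belong to that gene.

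The immunity-related GTPases act on the vacuoles of intracellular parasites. Igtp had 29.7, 31.9, 48.03, 27.7 and 30.3 CPM in P2ry14-null, against 65.8, 35.7, 46.7, 34.8 and 42.8 CPM in WT. Irgm1 had 27.3, 29.0, 42.3, 25.7 and 27.2 CPM in P2ry14-null, against 53.3, 31.8, 43.4, 28.1 and 41.0 CPM in WT. In both genes P2ry14-null library 3 was the highest of its group and WT library 1 the highest of all, and the log2 fold changes were −0.43 ± 0.18 for Igtp and −0.38 ± 0.17 for Irgm1, each −0.25 without WT library 1. Iigp1 had 4, 11, 33, 10 and 18 reads in P2ry14-null libraries, against 55, 25, 28, 27 and 18 in WT libraries. Scaled for library size, these were 0.0593, 0.0714, 0.224, 0.0777 and 0.115 CPM in P2ry14-null, against 0.419, 0.209, 0.154, 0.173 and 0.138 CPM in WT. The log2 fold change of Iigp1 was −0.93 ± 0.40 and became −0.56 without WT library 1. Irgm2, which shares 162 exon bases with Igtp, averaged 24.4 CPM in P2ry14-null and 28.9 CPM in WT (−0.24 ± 0.14).

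**Figure D2:**
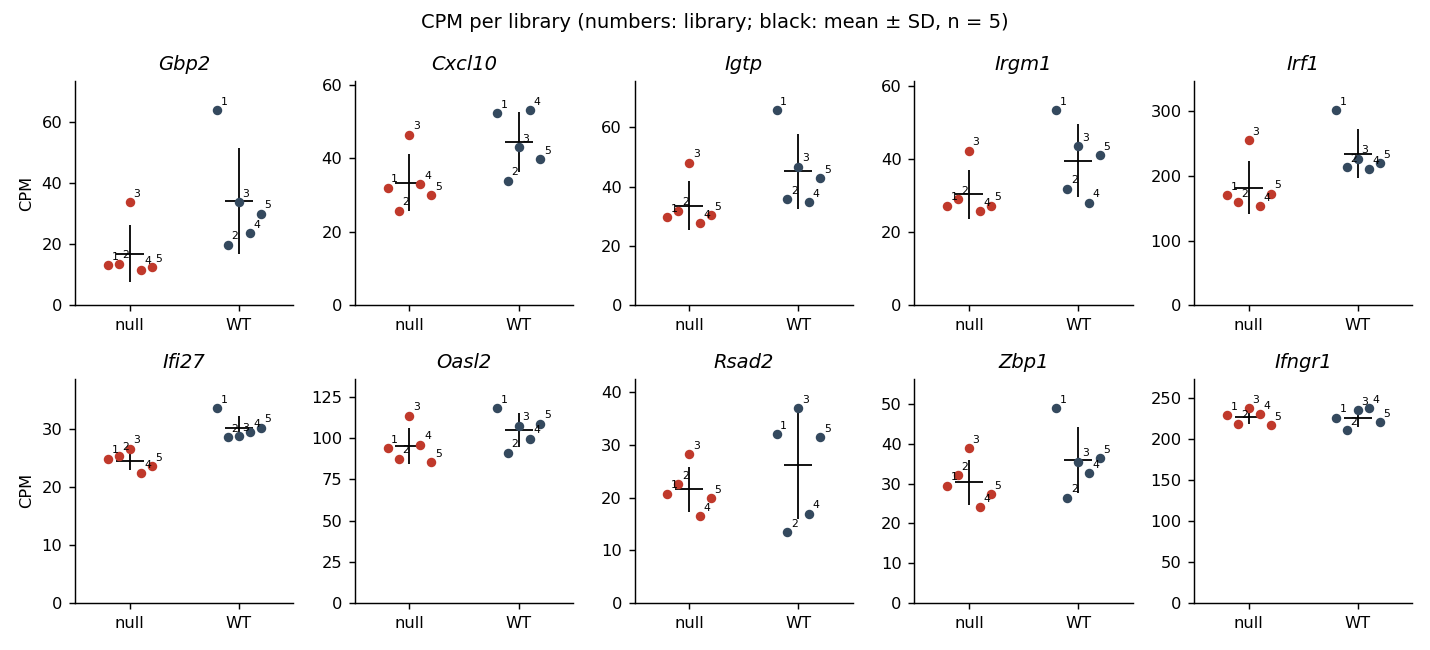
CPM of 10 members is shown for each library, with points numbered by library, P2ry14-null (labelled null) to the left of WT and black marks at the mean and SD of each group. P2ry14-null library 3 is at the top of its group in all 10 members shown, and Ifi27 is the member whose groups do not overlap. The members shown were not drawn by a rule, and library 3 was not the top of its group in every member. In Slfn2 it was the lowest P2ry14-null library, at 611 CPM, and in Gbp3 it had 2.62 CPM, against 2.96 CPM in library 2.

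The remaining 10 induced genes all lay below 0 (48.8% of all genes did), with a median of −0.08. Ifi27, a small interferon-induced membrane protein, had 24.9, 25.3, 26.6, 22.3 and 23.5 CPM in P2ry14-null, against 33.6, 28.5, 28.6, 29.4 and 30.2 CPM in WT. No P2ry14-null library reached the lowest WT library. It averaged 24.5 ± 1.66 CPM in P2ry14-null and 30.1 ± 2.07 CPM in WT (SD, n = 5 each), and its log2 fold change was −0.29 ± 0.06 (95% interval −0.42 to −0.16; unadjusted p = 0.000323, edgeR adjusted p = 0.419). DESeq2 gave an adjusted p of 0.0207. Bst2, which tethers budding viruses and also marks plasmacytoid dendritic cells, had 27.4, 32.2, 33.0, 23.6 and 25.9 CPM in P2ry14-null, against 39.4, 28.3, 32.7, 28.7 and 35.4 CPM in WT, with a log2 fold change of −0.21 ± 0.11 (−0.14 without WT library 1). The plasmacytoid dendritic cell list summed to 2.06 CPM in P2ry14-null library 2, 1.02 to 1.69 CPM in the other P2ry14-null libraries and 1.16 to 1.47 CPM in WT. Of its 5 genes, 3 were higher in P2ry14-null on average. Rtp4, a receptor transporter, had 4.54, 5.91, 6.32, 3.83 and 4.45 CPM in P2ry14-null, against 7.82, 3.28, 8.15, 3.89 and 6.26 CPM in WT. Slfn2, a Schlafen protein of immune cells, was the most highly expressed member per length, with 387 RPKM in P2ry14-null and 405 RPKM in WT. Its counts were 696, 649, 611, 634 and 632 CPM in P2ry14-null libraries, against 821, 684, 651, 515 and 696 CPM in WT libraries, and its log2 fold change was −0.06 ± 0.10.

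**Figure D3:**
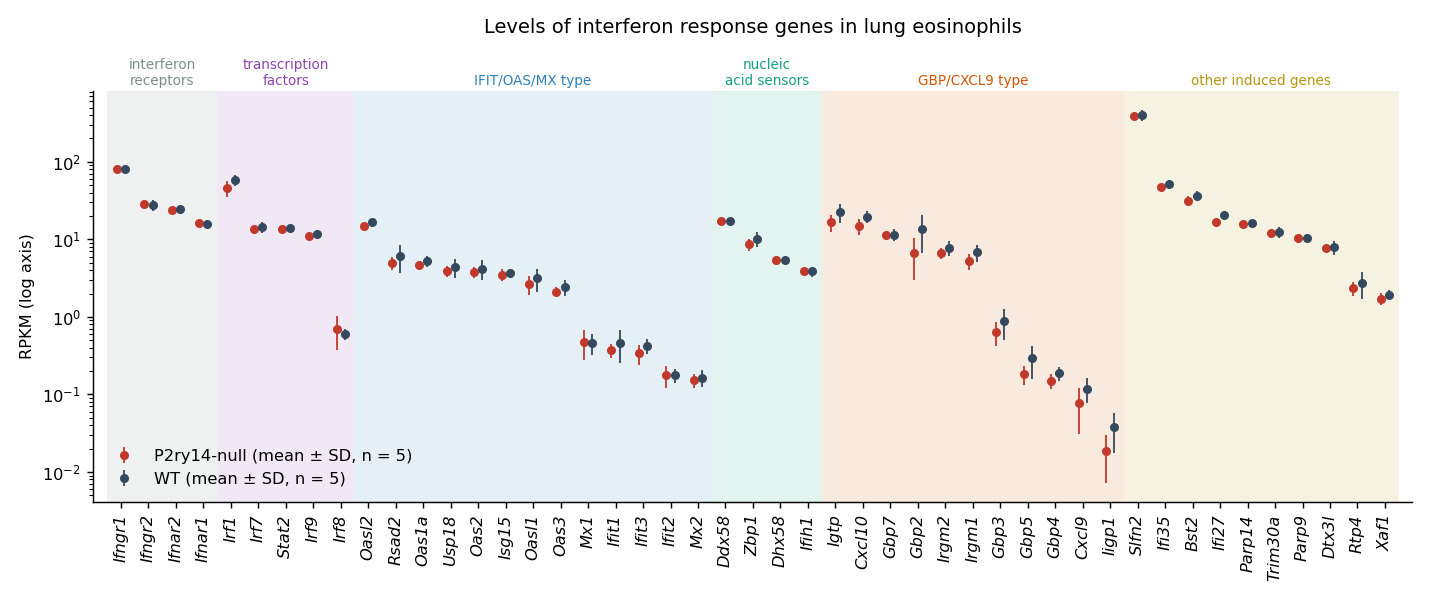
Mean RPKM of the 47 tested members is plotted on a log axis, with SD over 5 libraries, grouped by role and with P2ry14-null to the left of WT. Slfn2 is the highest, and Ifi44, with 23 reads in each genotype, is not drawn.

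The type I and type II classes were set against each other library by library. For each library, the mean log2 CPM of the tested genes of a class was expressed as a deviation from the WT mean. The GBP/CXCL9 type score was −0.77, −0.39, 0.01, −0.70 and −0.64 in P2ry14-null libraries 1 to 5, against 0.57, −0.40, 0.13, −0.20 and −0.10 in WT libraries 1 to 5. The IFIT/OAS/MX type score was −0.33, 0.07, −0.0037, −0.31 and −0.14 in P2ry14-null, against 0.21, −0.58, 0.23, −0.11 and 0.25 in WT. Each score was below the WT mean in 4 of 5 P2ry14-null libraries, and both overlapped between the genotypes. The difference GBP minus IFIT was −0.44, −0.46, 0.02, −0.39 and −0.50 in P2ry14-null and 0.36, 0.18, −0.11, −0.09 and −0.34 in WT, with means of −0.35 ± 0.21 and 0.00 ± 0.27 (SD, n = 5 each). No test was made of these scores, because the genes were chosen with results of these data known. Among all 10 libraries, P2ry14-null library 4 held the lowest value of 12 of the 47 members, WT library 2 the lowest of 15 and WT library 1 the highest of 24.

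**Figure D4:**
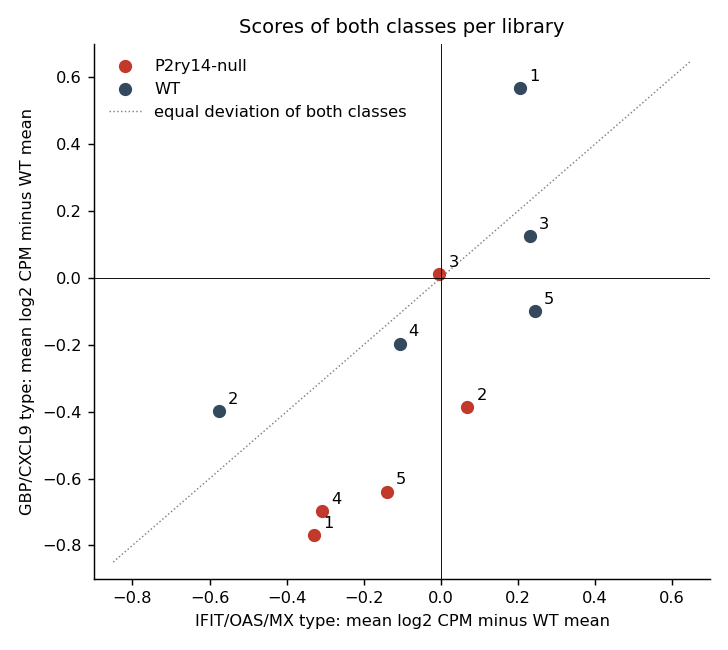
Each point is 1 library, placed by its IFIT/OAS/MX type score and its GBP/CXCL9 type score, both as mean log2 CPM less the WT mean, with P2ry14-null and WT marked by colour and a dotted line where both scores are equal. P2ry14-null library 3 lies next to the WT mean, at 0.01 on the GBP axis, and the other P2ry14-null libraries lie below 0 on the GBP axis. WT libraries 2, 4 and 5 also lie below 0 there, at −0.40, −0.20 and −0.10, and WT library 1 is the highest, at 0.57.

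A score over the heat shock genes Hspa1a, Hspa1b, Dnajb1, Hsp90aa1 and Hspa8, chosen after their values were seen, was −1.29, −0.97, −0.14, −0.53 and −1.48 in P2ry14-null libraries 1 to 5, against 0.25, −0.18, −0.13, 0.25 and −0.19 in WT libraries 1 to 5. P2ry14-null library 3 was the closest to WT for this score as well as for the GBP score. The order of the other P2ry14-null libraries differed between the scores. Library 4 had −0.53 for heat shock and −0.70 for GBP, and library 2 had −0.97 for heat shock and −0.39 for GBP. The part of the heat shock genes in the interferon values was not tested.

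**Figure D5:**
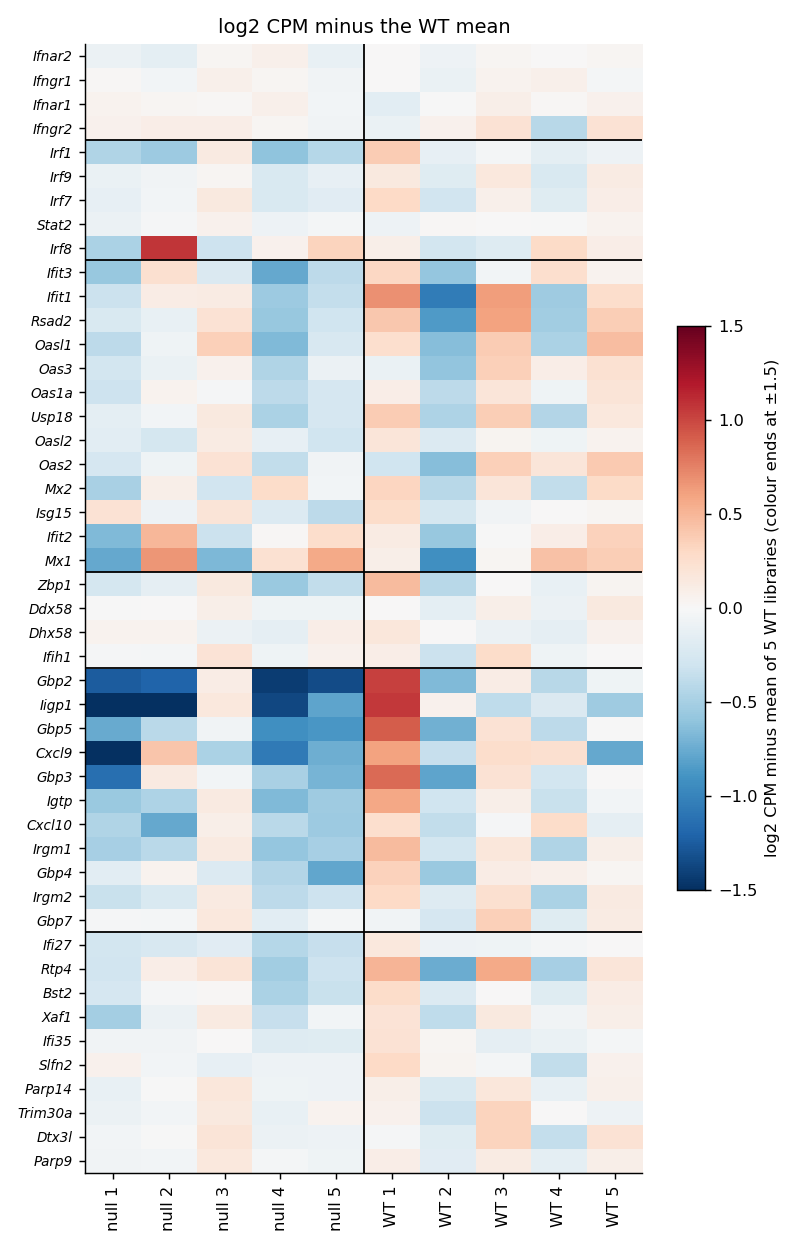
Each row is a tested member, grouped by class, and each column a library, P2ry14-null to the left of WT. Colour is log2 CPM less the mean of the 5 WT libraries, saturating at the ends of the scale.

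Related genes outside the 48 were followed on lists of their own. In the class I antigen processing list, 15 of 16 genes lay below 0 (median −0.14). At an unadjusted edgeR p under 0.05, 6 of the 16 were lower, against 2.67% of all genes, and 0 were called by edgeR. H2-T23 averaged 264 CPM in P2ry14-null and 302 CPM in WT, and H2-K1 averaged 1612 CPM in P2ry14-null and 1890 CPM in WT, with log2 fold changes of −0.20 ± 0.07 and −0.23 ± 0.08. Of 16 tested JAK-STAT genes and regulators, 12 lay below 0 (median −0.04), among them Isg20, an antiviral exonuclease, at 14.9 CPM in P2ry14-null and 17.3 CPM in WT. Of 47 other antiviral genes, 28 lay below 0 and 19 above (59.6% below, against 48.8% of all genes), their log2 fold changes ran between −0.27 and 0.34 with a median of −0.02, and 2 were lower at an unadjusted p under 0.05. Of these 2, Ly6e was lower in all 5 P2ry14-null libraries than in any WT library, which 0.359% of all genes were. Ly6e averaged 627 ± 33.0 CPM in P2ry14-null, against 729 ± 59.5 CPM in WT (SD, n = 5 each). Of 12 tested other GBP and IRG genes, 8 lay below 0 (median −0.09), with Tgtp1 at −1.17 ± 0.44 and Gbp8 at −0.49 ± 0.16. All had an edgeR adjusted p of 0.999.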

How the data were processed

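Eosinophils were FACS-sorted from lung, and 5 P2ry14-null and 5 WT libraries were prepared (TruSeq RNA, per the labels). The values used are deposited whole-number counts of reads for each gene, on mm10. The submitters' processing notes name STAR 2.5, featureCounts 1.5.0-p1 of the Subread package, and DESeq2. No source used here gives the annotation, the strand setting or the handling of multiply mapped reads, so close copies (Gbp, Ifit, Oas, Mx and IRG genes) and overlapping genes are uncertain as single genes. Parp9 and Dtx3l share 458 exon bases.

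The deposited counts were fitted in R 4.3.3 with edgeR 4.0.16 (TMM factors, filterByExpr, quasi-likelihood F test, genotype only), and p-values were Benjamini-Hochberg adjusted over the 15586 genes kept. A gene was called at an adjusted p under 0.05. DESeq2 1.42.0, other scalings, no filter, each library left out and a replicate block were alternatives. RPKM used TMM-scaled library sizes and union exon lengths from GENCODE vM21. Promoters came from RefSeq (GRCm38.p6). Class scores used log2 CPM with a prior count of 2.

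The members and lists were chosen with earlier results of these data known. Values per library are given for the 10 members with the smallest unadjusted p and for the member of each class with the highest RPKM or the largest spread. Other members given by library were chosen after their values were seen. One gene that the rule for the related lists named is not reported here.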

Additional observations from a re-analysis of the deposited data

Results flagged for a closer look

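In 8 of 108 groups of 5 libraries, 1 library stood apart from the others by Dixon's criterion on log2 CPM, which chance gives in about 1 in 20 groups. In 6 of the 8 it was P2ry14-null library 3, which was the highest of its group. The 6 are not separate observations, because the flagged GBP minus IFIT score is computed from genes that include the flagged Gbp2, Igtp and Irgm1.

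Irf1 had 255 CPM in P2ry14-null library 3, and the remaining libraries of its group had 153 to 172 CPM. Gbp2 had 33.7 CPM there, against 11.6 to 13.6 CPM in the others. Igtp had 48.03 CPM, against 27.7 to 31.9 CPM in the others. Irgm1 had 42.3 CPM, against 25.7 to 29.0 CPM. Parp9, the binding partner of the ubiquitin ligase Dtx3l, had 57.1 CPM, against 49.0 to 50.0 CPM. The GBP minus IFIT score of the same library was 0.016, and the remaining P2ry14-null libraries had −0.50 to −0.39.

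In WT, Irf1 had 301 CPM in library 1, against 210.04 to 226 CPM in the other libraries. Ifnar2 had 76.8 CPM in WT library 2, against 81.7 to 82.7 CPM in the others.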

How the results depend on the processing

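Of the 19 members given by rule, 13 kept their direction under all 16 alternatives. edgeR called 6 genes and 0 members, and leaving out each library in turn gave 3 to 5 genes and 0 members. DESeq2 called 19 genes and 1 member, Ifi27. Over all tested genes, deviations of same-numbered libraries correlated at −0.0933 to 0.0940, and 2 of 10 libraries correlated best with their own number. These values cover all genes together, so they cannot exclude a pairing by number for the members alone. With the numbers as a replicate block, edgeR called 6 genes and 0 members. DESeq2 with the replicate block, an alternative chosen after seeing the data, called 45 genes and 3 members (Cxcl10, Ifi27 and Irf1). The score difference between GBP and IFIT genes was −0.62 with the median over members in place of the mean, and −0.45 to −0.26 with each library left out.

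Small values near 0 changed sign, and the cause was not tested. Ddx58 was 0.019 with library totals alone, Ifngr1 was −0.0070 with no low-count filter, and Mx1 was −0.00091 and −0.017 with the replicate block in edgeR and in DESeq2. With each library left out, the log2 fold change ranged from −0.020 to 0.028 for Ifngr1, −0.055 to 0.085 for Ifngr2, −0.066 to 0.37 for Irf8, −0.10 to 0.22 for Mx1, −0.046 to 0.024 for Ddx58 and −0.14 to 0.017 for Slfn2. Genes under about 1 CPM, such as Cxcl9, Iigp1 and Ifit3, rest on few reads.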
